A study of Mus musculus with 17 samples.

Results

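The unfolded protein response and endoplasmic reticulum (ER) folding genes described here are 32 genes: the ER stress sensors and their effectors, the chaperones and disulfide enzymes of the ER lumen, the ER-associated degradation (ERAD) factors and 1 translocon subunit. They were taken by symbol from the platform annotation, with the probe set of highest mean signal for each gene. All 32 were measured, among 19938 genes in the series, and the gene listed as Ero1l is named Ero1a here, as in the reference gene table. The RNA was from 3134, a cell line of mouse mammary epithelium, whose stable derivatives used here all carried a tetracycline-regulated transactivator. In 3 of the 4 derivatives, drug removal also produced a Flag-tagged dominant-negative (dn) form of a chromatin remodeler ATPase: dnBrg1 (gene Smarca4, SWI/SNF complexes), dnChd4 (NuRD) or dnSnf2h (gene Smarca5, ISWI complexes). The control line made the transactivator alone. Stocks of every line were held in 5 µg/ml tetracycline, and cells were then plated for 48 h in charcoal-dextran-stripped serum, either without the drug (induced) or with it (repressed). Each dominant-negative line had 2 induced and 2 repressed arrays, and the control line had 3 induced and 2 repressed arrays, 17 Affymetrix arrays in all. Induction of a dominant-negative line thus combines drug removal, the transactivator and the mutant remodeler, and only the control line could separate them. Each derivative is named as 1 stable line. The labels do not say whether replicates were separate cultures, and the p-values therefore reflect spread among these arrays only, which may be technical.

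The unfolded protein response is the signalling system by which a cell matches the folding capacity of its ER to the load of new secretory and membrane protein. IRE1 (gene Ern1), PERK (Eif2ak3) and ATF6 (Atf6) sense misfolded protein in the ER lumen. IRE1 splices Xbp1 mRNA into the form that encodes an active transcription factor, ATF6 is cut to release another, and PERK phosphorylates eIF2α, which slows translation and raises ATF4. ATF6 and XBP1 drive chaperone and ERAD genes, and the chaperone BiP (Hspa5) is the usual readout of the response. A gene-level array value does not separate spliced from unspliced Xbp1 and does not measure sensor activity. In mammary epithelium the same machinery serves the secretion of milk proteins.

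The arrays were first checked against their labels. Chd4 read 12.27 and 12.27 (log2 signal) in induced dnChd4 arrays, against 10.56 and 10.35 in repressed ones. Smarca4 read 9.61 and 9.73 in induced dnBrg1 arrays, against 9.66 and 9.46 in repressed ones, and Smarca5 read 9.43 and 9.59 in induced dnSnf2h arrays, against 9.69 and 9.81 in repressed ones, so those probe sets showed no rise with the transgene. These probe sets need not see the transgene, since the labels do not say what part of each cDNA it holds. Of the 17 arrays, 11 correlated best with an array of their own group. The library labelled control repressed replicate 1 was closest to the library labelled control induced replicate 2, while control induced replicate 1 and control repressed replicate 2, as labelled, were closest to each other. Across the genes outside the 32, control repressed replicate 1 minus replicate 2 correlated at r = 0.798 with induction averaged over the dominant-negative lines, and control induced replicate 1 minus replicate 2 at r = -0.815. In the dominant-negative lines the same measure of replicate pairs lay between -0.0407 and 0.185. These are descriptions across genes, which are not independent. Both dnSnf2h repressed arrays and dnSnf2h induced replicate 2 were closest to dnChd4 arrays of the same treatment. The inductions and the differences among dominant-negative lines were therefore fitted on the 12 arrays of those lines, and the control comparisons on all 17, with a 15-array fit beside them that omits control induced replicate 1 and control repressed replicate 1. Of the epithelial markers, Epcam, Krt19, Elf3 and Esrp1 averaged under the log2 signal of 4.77 that bounds the dimmest 30% of genes. Of 15 mesenchymal markers, Vim, Cdh2, Fn1 and Zeb1 averaged between 8.48 and 12.71. Dcn (3.95) and Lum (3.10) averaged under that bound, and Thy1 averaged 6.14. Krt14 averaged 7.32 and Krt8 6.29. Krt5 (4.85), Cldn7 (5.08), Cdh1 (5.19) and Esrp2 (5.23) averaged above the bound but under 5.48, the lowest median of an array. The epithelial label was thus met by some of its 14 markers, and not by these or by Epcam, Krt19, Elf3 and Esrp1. Markers of both lists thus went both ways.

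Induction changed ER genes in both directions and left the central chaperone Hspa5 with no call in any line. Herpud1, an ERAD scaffold, and Xbp1 fell in all 3 dominant-negative lines, and the ERAD adaptor Sel1l, the mannosidase-like Edem2 and the eIF2α phosphatase subunit Ppp1r15a rose in all 3. By limma on 12 arrays, with p adjusted over all 19938 genes and called under 0.05, 7 of the 32 genes rose and 2 fell in dnBrg1. Those 9 were 28.1% of the 32, against 14.2% of all genes (8.01% higher, 6.22% lower). In dnChd4, 9 rose and 2 fell, 34.4% against 18.0% of all genes (11.2% higher, 6.82% lower). In dnSnf2h 5 rose and 6 fell, 34.4% against 17.5% (9.20% higher, 8.34% lower). None of the 32 is dim, and dim genes are seldom called. With the dimmest 30% of genes left out, 11, 12 and 12 of the 32 were called, against 21.6%, 27.7% and 25.9% of the 13956 genes kept. The median change of the 32 was 0.04 in dnBrg1, 0.13 in dnChd4 and 0.01 in dnSnf2h (log2), against medians of -0.03, -0.03 and -0.01 over all genes. Of the 32, 17 were called in at least 1 line (53.1%) and 15 in none, against 27.0% of all genes and 36.6% of genes above the dim bound called in at least 1. Herpud1, Xbp1, Sel1l, Edem2 and Ppp1r15a were the 5 called in all 3 lines in 1 direction, 15.6% of the 32 against 7.68% of all genes and 10.9% of genes above the dim bound. None of the 32 was called in opposite directions, as were 0.176% of all genes. In bulk RNA, fewer cells of a type and less RNA per cell cannot be told apart. With all 17 arrays in the fit none of the 32 was called in any of the 3 lines, with 7, 6 and 6 at an unadjusted p under 0.05 and 0.341%, 0.0953% and 0.00502% of all genes called. The changes themselves are the same in both fits, and the pooled spread that includes the control arrays is wider. Leaving out 1 array moved the count of calls between 6 (without dnBrg1 repressed replicate 2, among others) and 11 in dnBrg1, between 5 (without dnChd4 induced replicate 2) and 12 in dnChd4, and between 7 and 11 in dnSnf2h. In dnSnf2h the split by direction rested on single arrays, with 3 higher and 8 lower without dnSnf2h induced replicate 2, and 7 higher and 4 lower without dnSnf2h repressed replicate 2. The median there ran between -0.07 and 0.09. In dnChd4 the count was 7 without either dnChd4 repressed array or without dnChd4 induced replicate 1. In dnSnf2h it was 7 without dnSnf2h induced replicate 1, either dnBrg1 induced array or any dnChd4 array.

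**Figure D1:**
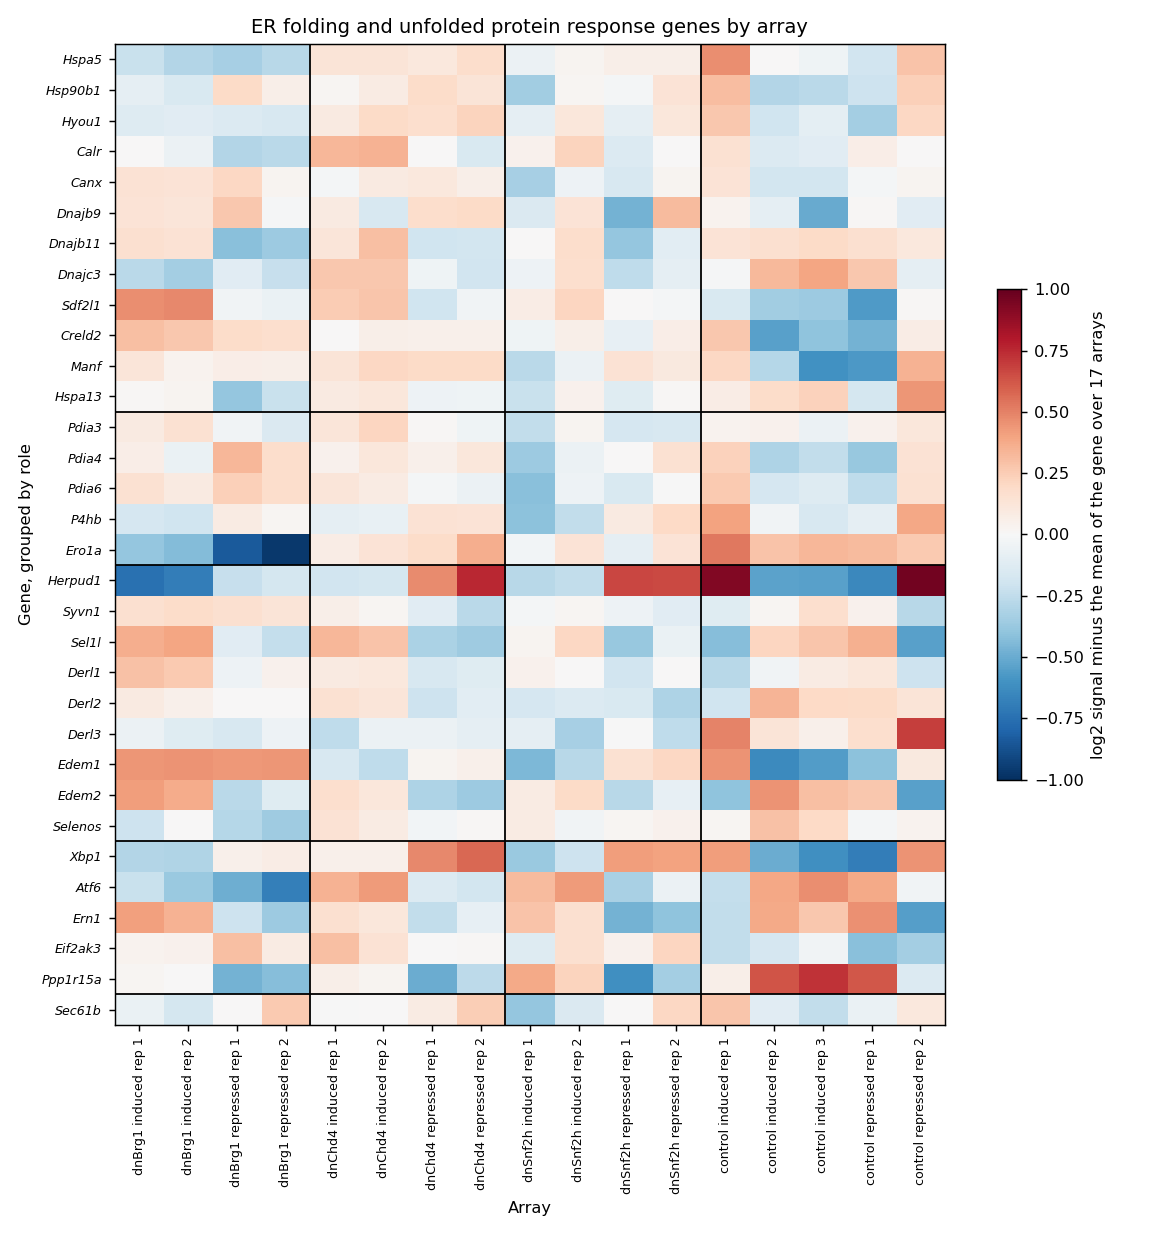
Log2 signal of the 32 genes (rows, grouped by role) in the 17 arrays (columns), each minus the mean of the gene over all arrays; red is above that mean and blue below it, and induced arrays stand left of repressed ones in each line. The 2 induced dnChd4 arrays had 26 and 27 of 32 genes above their mean, against 16 and 16 in the repressed ones, and the 2 induced dnSnf2h arrays, with 10 and 20, differed from each other.

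The heat map shows how unevenly the genes moved within an array. Induced dnBrg1 arrays had 19 and 18 of the 32 genes above the gene's own mean, against 14 and 13 in repressed ones. In the dnSnf2h line the replicates differed more than the treatments did, with 10 and 20 in induced arrays against 10 and 18 in repressed ones. The mean deviation over the 32 genes was largest in the library labelled control induced replicate 1, at 0.12, and lowest in dnSnf2h induced replicate 1, at -0.11 (log2).

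**Figure D2:**
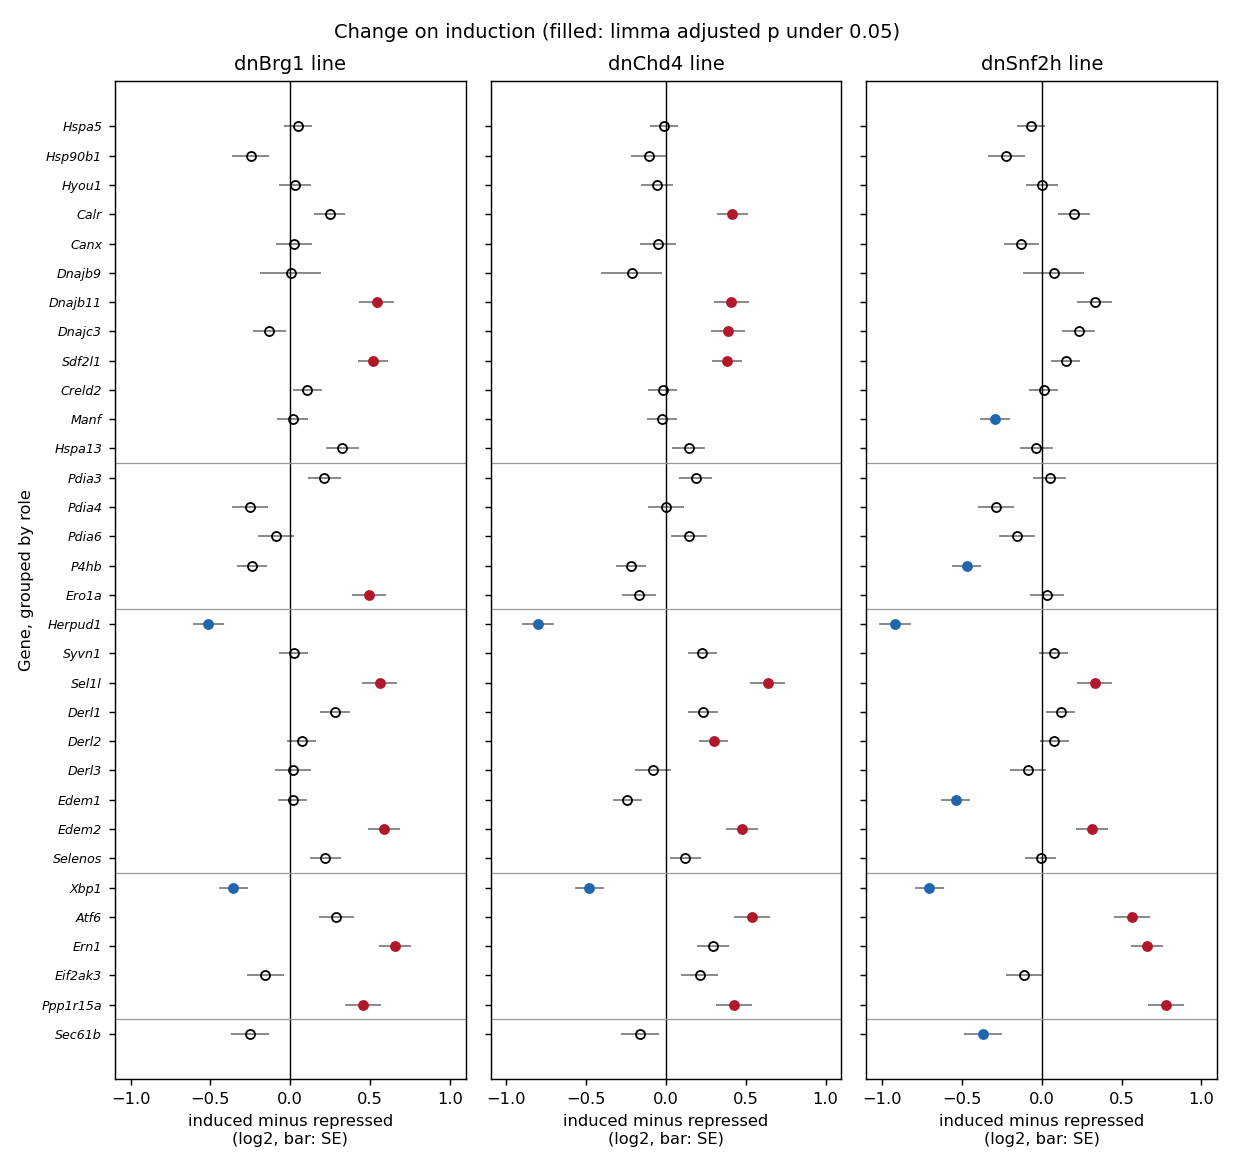
Induced minus repressed log2 signal of each of the 32 genes in the dnBrg1, dnChd4 and dnSnf2h lines, with bars of 1 SE from limma on 12 arrays; filled points have an adjusted p under 0.05 (red higher, blue lower), and lines separate chaperones, disulfide enzymes, ERAD factors, sensors and the translocon gene. Herpud1 and Xbp1 lie left of 0 in all 3 lines, Sel1l, Edem2 and Ppp1r15a right of it, and Hspa5 stays within 0.07 of 0.

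Some promoters of these genes carry sequence elements by which the response was defined. The matches are shown so that the genes holding them can be set beside their changes. RefSeq windows (GRCm38.p6, from 250 bases before to 50 after each start) were found for 27 of the 32 genes, all but Hyou1, Manf, Derl1, Atf6 and Hspa13. The ER stress response element (ERSE), bound by NF-Y and ATF6, was searched on both strands as CCAAT and CCACG with 9 bases of any kind between them. It occurred in 9 of the 27 windows, against 0.119% of the 32851 windows in the table. The 10 matches are printed 5′ to 3′ in the orientation of the motif, with the fixed letters in capitals:
Hspa5: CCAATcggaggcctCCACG
Calr: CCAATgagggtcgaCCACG
Derl3: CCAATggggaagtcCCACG
Hsp90b1, farther site: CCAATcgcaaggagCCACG
Hsp90b1, nearer site: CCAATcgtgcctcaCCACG
Canx: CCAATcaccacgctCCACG
Pdia6: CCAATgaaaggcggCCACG
Dnajc3: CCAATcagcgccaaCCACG
Creld2: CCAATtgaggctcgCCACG
Syvn1: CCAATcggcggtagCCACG
Those 9 genes are chiefly chaperones and lectins, and 2 of them, Calr and Dnajc3, were called in an induction (both in dnChd4) while 7 were called in none. Of the 18 genes with a window and no ERSE, 13 were called in at least 1 line and 5 in none. Over all genes 27.0% were called in at least 1 line. These are counts with no test, and the genes were not drawn at random. The related ERSE-II, searched on both strands as ATTGG and CCACG with 1 base between them, occurred in 2 windows, against 0.0365% of all windows:
Herpud1: ATTGGgCCACG
Dnajb11: ATTGGcCCACG
The Herpud1 match lies 52 to 42 bases upstream of the start, and the Dnajb11 match 7 to 17 bases downstream of it. Herpud1 fell in all 3 lines, and Dnajb11 rose in dnBrg1 and dnChd4.

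The upstream windows of the 3 genes that frame the result follow, 150 bases each on the strand of the gene, all on the plus strand of GRCm38.p6: Herpud1 at chr8:94386279-94386428, Xbp1 at chr11:5520491-5520640 and Hspa5 at chr2:34771940-34772089. Capitals mark the matched letters of ERSE, ERSE-II, the CCAAT box and TGATGNAA, the core of the element bound by ATF4 with C/EBP partners (on the opposite strand in Herpud1).
Herpud1: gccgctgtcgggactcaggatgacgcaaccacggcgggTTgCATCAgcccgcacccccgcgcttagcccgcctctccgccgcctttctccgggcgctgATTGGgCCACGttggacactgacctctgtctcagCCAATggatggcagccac
Xbp1: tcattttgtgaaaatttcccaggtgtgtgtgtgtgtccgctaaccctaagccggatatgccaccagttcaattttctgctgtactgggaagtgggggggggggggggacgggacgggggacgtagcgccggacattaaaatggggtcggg
Hspa5: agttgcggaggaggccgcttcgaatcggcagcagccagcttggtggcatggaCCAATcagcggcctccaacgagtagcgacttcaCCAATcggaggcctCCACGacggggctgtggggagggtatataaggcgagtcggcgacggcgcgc
Each ERSE or ERSE-II match contains a CCAAT box. TGATGNAA occurred in the Herpud1 window alone among the 27, against 3.97% of all windows. CCAAT occurred in 21 of 27, against 37.4%, and TGACGTGG, the core of the XBP1 element, in 0 of 27, against 0.676%. The printed Xbp1 window held none of these letters. A match is a description of the window, and occupancy was not measured.

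The sensors and their effectors had calls in every line: of these 5 genes, Ern1, Atf6 and Ppp1r15a were above 0 in every line, Xbp1 was below 0 in every line, and Eif2ak3 had no call. Over all genes 14.2%, 18.0% and 17.5% were called in dnBrg1, dnChd4 and dnSnf2h. Among genes above the dim bound the shares were 21.6%, 27.7% and 25.9%. Xbp1 read 8.67 and 8.66 in induced dnBrg1 arrays, against 9.01 and 9.03 in repressed ones. It read 9.01 and 9.01 in induced dnChd4 arrays, against 9.44 and 9.53 in repressed ones, and 8.59 and 8.75 in induced dnSnf2h arrays, against 9.38 and 9.36 in repressed ones. The groups did not overlap in any line. With 2 arrays per group this also held for genes that barely changed, such as Edem1 in dnBrg1 (0.02). The falls were -0.36 in dnBrg1 (SE 0.0906 in each line; adjusted p = 0.0152), -0.48 in dnChd4 (adjusted p = 0.00157) and -0.71, 1.63-fold, in dnSnf2h (adjusted p = 9.49e-05). The dnBrg1 call ended without any 1 of its 4 arrays (adjusted p up to 0.107), and the others held with each array left out. Ern1, the kinase and RNase that splices Xbp1, read 7.59 and 7.53 in induced dnBrg1 arrays, against 6.98 and 6.82 in repressed ones, and 7.47 and 7.34 in induced dnSnf2h arrays, against 6.71 and 6.78 in repressed ones. It rose by 0.66 in both lines (SE 0.0997; adjusted p = 0.000471 in dnBrg1 and 0.000335 in dnSnf2h), 1.58-fold in each. In dnChd4 it read 7.34 and 7.30 induced, against 6.94 and 7.10 repressed, a difference of 0.30 that missed the threshold (adjusted p = 0.0533). In dnBrg1 and dnSnf2h, Ern1 was higher and the level of its substrate mRNA lower. Xbp1 also fell in dnChd4, where Ern1 had no call, and a link between them was not tested.

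Atf6, the precursor of the cleaved transcription factor, read 9.86 and 9.94 in induced dnChd4 arrays, against 9.38 and 9.33 in repressed ones, and 9.83 and 9.94 in induced dnSnf2h arrays, against 9.19 and 9.46 in repressed ones. It rose by 0.54 in dnChd4 (SE 0.111; adjusted p = 0.00292) and by 0.57 in dnSnf2h (adjusted p = 0.00228). In dnBrg1 it read 9.29 and 9.14 induced, against 9.03 and 8.83 repressed, with a difference of 0.29 and no call (adjusted p = 0.105). Ppp1r15a (GADD34), which recruits a phosphatase to eIF2α and is itself an ATF4 target, read 7.10 and 6.94 in induced dnSnf2h arrays, against 6.11 and 6.38 in repressed ones. It read 6.74 and 6.72 in induced dnBrg1 arrays, against 6.25 and 6.29 in repressed ones, and 6.78 and 6.75 in induced dnChd4 arrays, against 6.22 and 6.46 in repressed ones. All induced arrays of these lines were above all repressed ones, and how many of all genes do so was not counted. Ppp1r15a rose by 0.46 in dnBrg1 (SE 0.112; adjusted p = 0.0122), 0.43 in dnChd4 (adjusted p = 0.0142) and 0.78, 1.71-fold, in dnSnf2h (adjusted p = 0.000233). The dnBrg1 call ended without any 1 of its 4 arrays (adjusted p up to 0.0884), and the dnChd4 call without dnChd4 repressed replicate 1 or either induced array (up to 0.174). Eif2ak3 (PERK) read 7.89 and 7.90 in induced dnBrg1 arrays, against 8.16 and 7.94 in repressed ones, 8.16 and 8.0 in induced dnChd4 arrays, against 7.86 and 7.87, and 7.73 and 8.02 in induced dnSnf2h arrays, against 7.90 and 8.07. Its differences of -0.16, 0.21 and -0.11 (SE 0.116) had adjusted p of 0.474, 0.269 and 0.604.

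**Figure D3:**
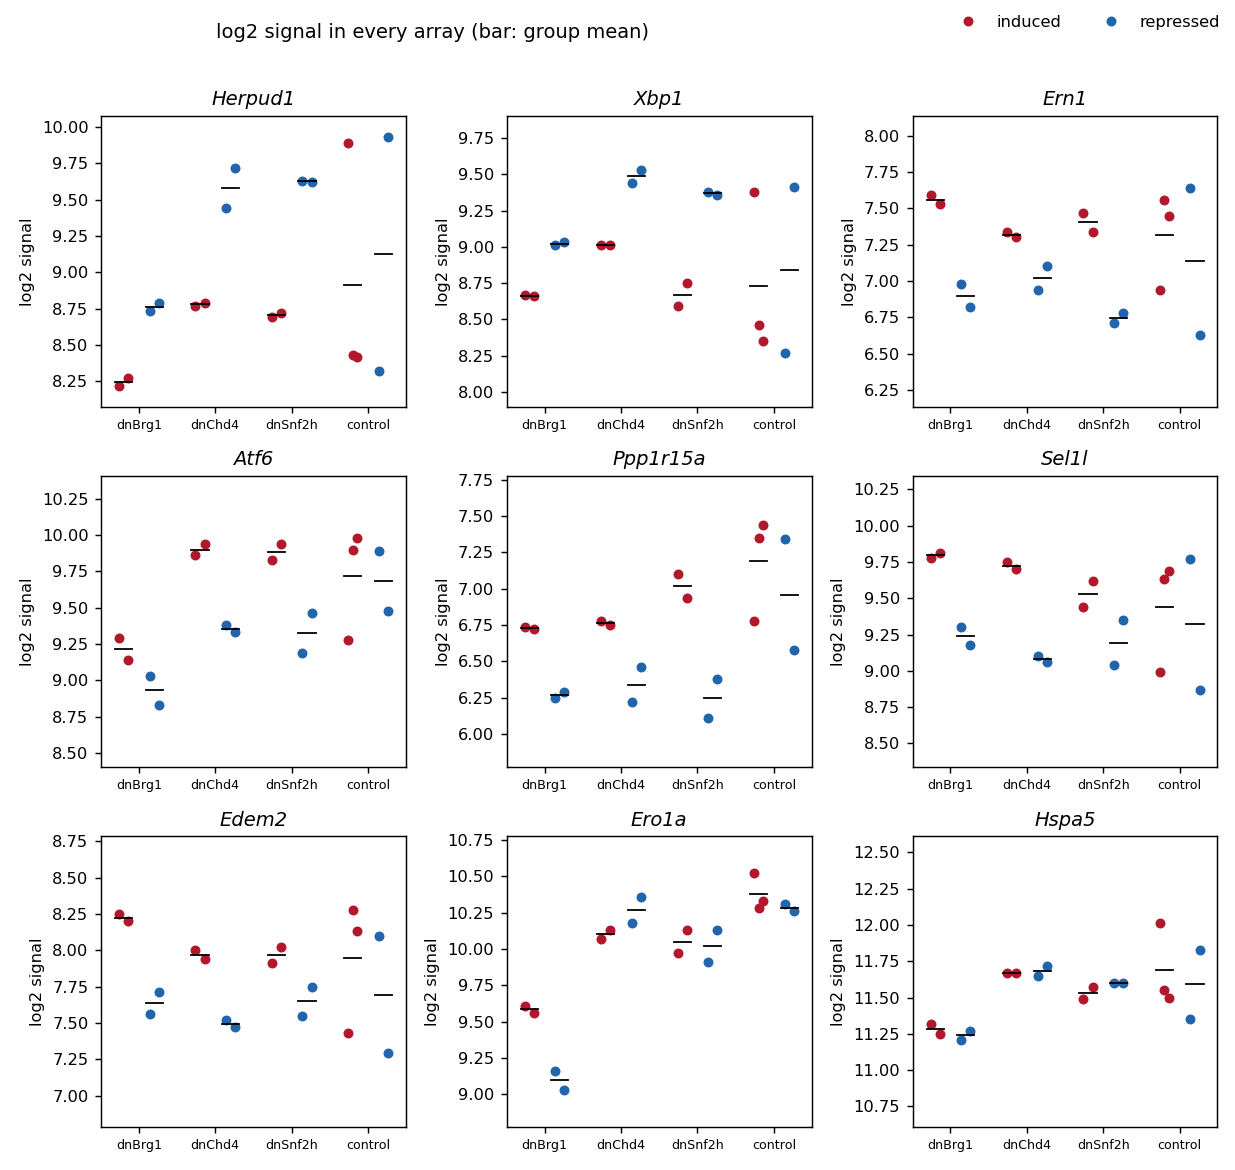
Log2 signal in every array for 9 of the genes, by line (induced red, repressed blue; short bars are group means), each panel spanning 2 log2 units on its own scale. In the 3 dominant-negative lines Herpud1 and Xbp1 have lower induced than repressed means, and Ppp1r15a, Sel1l and Edem2 have higher ones. In the control line 1 array of each label lies with the other label.

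Among the 12 chaperones and co-chaperones, Dnajb11 and its partner Sdf2l1 rose in dnBrg1 and dnChd4, while BiP itself had no call. Of the 12, 2 rose and 0 fell in dnBrg1, 4 rose and 0 fell in dnChd4, and 0 rose and 1 fell in dnSnf2h. Over all genes 14.2%, 18.0% and 17.5% were called, and 21.6%, 27.7% and 25.9% of genes above the dim bound. The dnBrg1 and dnSnf2h counts are not above the latter shares. Hspa5 read 11.32 and 11.25 in induced dnBrg1 arrays, against 11.21 and 11.27 in repressed ones, 11.67 and 11.67 in induced dnChd4 arrays, against 11.65 and 11.72, and 11.49 and 11.57 in induced dnSnf2h arrays, against 11.60 and 11.60. Its changes were 0.05, -0.01 and -0.07 (SE 0.0879; adjusted p = 0.810, 0.95 and 0.678). Their 95% intervals ran from -0.14 to 0.24, from -0.20 to 0.17 and from -0.26 to 0.12, so changes beyond these bounds are outside the intervals and smaller ones are not. Dnajb11 (ERdj3), a J-domain partner of BiP, read 10.22 and 10.20 in induced dnBrg1 arrays, against 9.64 and 9.69 in repressed ones, and 10.18 and 10.36 in induced dnChd4 arrays, against 9.86 and 9.87. It rose by 0.54 in dnBrg1 (SE 0.110; adjusted p = 0.00361) and by 0.41 in dnChd4 (adjusted p = 0.0165). In dnSnf2h it read 10.06 and 10.23 induced, against 9.67 and 9.95 repressed, a difference of 0.33 that missed the threshold (adjusted p = 0.0508).

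Sdf2l1, which binds Dnajb11 in the ER lumen, read 9.75 and 9.77 in induced dnBrg1 arrays, against 9.25 and 9.22 in repressed ones, and 9.54 and 9.56 in induced dnChd4 arrays, against 9.09 and 9.25. It rose by 0.52 in dnBrg1 (SE 0.0924; adjusted p = 0.00154) and by 0.38 in dnChd4 (adjusted p = 0.00871), with 0.15 and no call in dnSnf2h (adjusted p = 0.325). Calreticulin (Calr), a lectin chaperone of glycoproteins, read 11.06 and 11.08 in induced dnChd4 arrays, against 10.73 and 10.58 in repressed ones, and rose by 0.42 (SE 0.0982; adjusted p = 0.00751). In the other 2 lines its differences were 0.25 and 0.20, with no call. Dnajc3 (p58IPK), a BiP co-chaperone, read 9.84 and 9.84 in induced dnChd4 arrays, against 9.53 and 9.38 in repressed ones, and rose by 0.39 (SE 0.104; adjusted p = 0.0165). It differed by -0.13 in dnBrg1 and 0.23 in dnSnf2h, with no call. In dnChd4 the calls of Sdf2l1, Dnajb11, Calr and Dnajc3 each ended without 2 or 3 of its 4 arrays in turn (adjusted p up to 0.178). Manf, a secreted ER stress factor, fell by 0.29 in dnSnf2h (SE 0.0956; adjusted p = 0.0480), with 8.85 and 9.06 induced against 9.27 and 9.22 repressed, and that call ended without any of 11 of the 12 arrays (up to 0.326). The remaining 7 (Hspa5, Hsp90b1, Hyou1, Canx, Dnajb9, Creld2 and Hspa13) had no call, with changes from -0.25 (Hsp90b1, the ER member of the Hsp90 family, in dnBrg1) to 0.33 (Hspa13 in dnBrg1, adjusted p = 0.0502).

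The 5 disulfide enzymes showed 1 call each in dnBrg1 and dnSnf2h and 0 in dnChd4, against 14.2%, 17.5% and 18.0% of all genes. Among genes above the dim bound the shares were 21.6%, 25.9% and 27.7%, and the counts are not above these. Ero1a, the oxidase that recharges protein disulfide isomerases, read 9.61 and 9.56 in induced dnBrg1 arrays, against 9.16 and 9.03 in repressed ones, and rose by 0.49 (SE 0.107; adjusted p = 0.00582). Without dnBrg1 repressed replicate 2 or dnBrg1 induced replicate 1 that call ended (adjusted p up to 0.0626). It read 10.07 and 10.13 in induced dnChd4 arrays, against 10.18 and 10.36 in repressed ones, and 9.97 and 10.13 in induced dnSnf2h arrays, against 9.91 and 10.13, with no call. P4hb, the protein disulfide isomerase itself, read 10.47 and 10.63 in induced dnSnf2h arrays, against 10.97 and 11.08 in repressed ones. P4hb fell by 0.47 in dnSnf2h (SE 0.0924; adjusted p = 0.00229), a call that ended when only that line was fitted (adjusted p = 0.0632), and differed by -0.24 and -0.22 in dnBrg1 and dnChd4. Pdia3, Pdia4 and Pdia6, further isomerases, differed by between -0.29 and 0.21 with no call.

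The 9 ERAD genes split by direction: Herpud1 fell while Sel1l and Edem2 rose. In dnBrg1, dnChd4 and dnSnf2h 14.2%, 18.0% and 17.5% of all genes were called, and 21.6%, 27.7% and 25.9% of genes above the dim bound. Herpud1, a ubiquitin-like ER membrane protein that assembles the Hrd1 ligase complex, read 8.22 and 8.27 in induced dnBrg1 arrays, against 8.73 and 8.79 in repressed ones. It read 8.77 and 8.79 in induced dnChd4 arrays, against 9.44 and 9.72 in repressed ones, and 8.69 and 8.72 in induced dnSnf2h arrays, against 9.63 and 9.62 in repressed ones. Induced and repressed arrays were apart in every line, which with 2 arrays per group is no measure of change by itself. The falls were -0.51 in dnBrg1 (SE 0.0996 in each line; adjusted p = 0.00277), -0.80 in dnChd4 (adjusted p = 5.70e-05) and -0.92, 1.89-fold, in dnSnf2h (adjusted p = 2.57e-05). All 3 held with each of the 12 arrays left out (adjusted p up to 0.0393, 0.00208 and 0.000625). Sel1l, the adaptor that holds Hrd1 to its substrates, read 9.78 and 9.81 in induced dnBrg1 arrays, against 9.30 and 9.18 in repressed ones, 9.75 and 9.70 in induced dnChd4 arrays, against 9.10 and 9.06, and 9.44 and 9.62 in induced dnSnf2h arrays, against 9.04 and 9.35. It rose by 0.56 (SE 0.109; adjusted p = 0.00291), 0.64 (adjusted p = 0.000791) and 0.33 (adjusted p = 0.0494).

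Edem2, which starts mannose trimming on glycoproteins bound for degradation, read 8.25 and 8.20 in induced dnBrg1 arrays, against 7.56 and 7.71 in repressed ones, 8.0 and 7.94 in induced dnChd4 arrays, against 7.52 and 7.47, and 7.91 and 8.02 in induced dnSnf2h arrays, against 7.55 and 7.75. It rose by 0.59 (SE 0.0997; adjusted p = 0.00104), 0.48 (adjusted p = 0.00329) and 0.32 (adjusted p = 0.0403). The dnSnf2h calls of Sel1l and Edem2 were the weakest: they ended without any of 11 and 9 of the 12 arrays (adjusted p up to 0.285 and 0.187), when only that line was fitted, and with median centring (adjusted p = 0.124 and 0.0944). Edem1, the related mannosidase-like gene, went the other way. It read 8.33 and 8.50 in induced dnSnf2h arrays, against 8.93 and 8.99 in repressed ones, and fell by 0.54 (SE 0.0918; adjusted p = 0.000808), with -0.24 in dnChd4 and 0.02 in dnBrg1 and no call there. Derl2, a channel component of the ERAD machinery, rose by 0.30 in dnChd4 (SE 0.0917; adjusted p = 0.0337), with 8.65 and 8.62 induced against 8.29 and 8.39 repressed, a call that ended without any of 6 of the 12 arrays (up to 0.219) and with quantile normalization (adjusted p = 0.127). Syvn1, the Hrd1 ligase itself, with Derl1, Derl3 and Selenos had no call, and their changes lay between -0.09 and 0.28. Sec61b, a small subunit of the translocon, read 8.0 and 8.24 in induced dnSnf2h arrays, against 8.39 and 8.59 in repressed ones, and fell by 0.37 (SE 0.118; adjusted p = 0.0428). That call ended without any of 8 of the 12 arrays (up to 0.298) and with the mean of its 3 probe sets.

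The inductions were compared with each other to ask which ER changes depend on the remodeler. Ero1a was the 1 gene of the 32 that differed: its induction was 0.66 higher in dnBrg1 than in dnChd4 (log2, SE 0.151; adjusted p = 0.0488), against 1.27% of all genes called in that difference. The call ended without any of 10 of the 12 arrays (adjusted p up to 0.289). It was 0 of 32 for dnBrg1 minus dnSnf2h (0.632% of all genes) and 0 of 32 for dnChd4 minus dnSnf2h (0.130%), where limma gave 8 and 3 of the 32 at an unadjusted p under 0.05. The nearest to passing was Edem1, 0.56 higher in dnBrg1 than in dnSnf2h (SE 0.130; adjusted p = 0.0784). Herpud1 differed between inductions by 0.29 (dnBrg1 minus dnChd4, SE 0.141; adjusted p = 0.534) and 0.41 (dnBrg1 minus dnSnf2h; adjusted p = 0.300), neither a call. The calls seen in only some lines, such as Calr, Dnajc3, P4hb and Atf6, are thus not shown to differ between lines.

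The repressed lines differed from each other before any induction, and the genes called were mostly lower in dnBrg1. Between repressed dnBrg1 and repressed dnChd4 arrays 2 genes were higher and 7 lower, against 14.4% of all genes called (8.07% higher, 6.35% lower). Between repressed dnBrg1 and repressed dnSnf2h 0 were higher and 6 lower, against 14.3% (7.61% higher, 6.72% lower). Among genes above the dim bound 21.7% and 21.1% were called, so the count of 6 is not above that share. The medians of the 32 were -0.06 and 0.02, with 12 and 17 of the 32 above 0, so the lower level was not general. Repressed dnChd4 and dnSnf2h arrays gave 0 calls (0.0150% of all genes; 2 of the 32 at an unadjusted limma p under 0.05). Ero1a read 9.16 and 9.03 in repressed dnBrg1 arrays, against 10.18 and 10.36 in repressed dnChd4 and 9.91 and 10.13 in repressed dnSnf2h arrays. Its differences were -1.17 (SE 0.107, 2.26-fold; adjusted p = 4.37e-06) and -0.93 (adjusted p = 4.55e-05), and it alone of the 32 also passed with all 17 arrays, against 4.03% and 3.89% of all genes. Herpud1 differed by -0.82 and -0.86 (adjusted p = 6.52e-05 and 4.61e-05), and Hspa5 by -0.45 and -0.36 (adjusted p = 0.00278 and 0.0117). The Hspa5 difference from dnSnf2h ended without dnBrg1 repressed replicate 1 (adjusted p = 0.0740). Xbp1 (-0.47 and -0.35), Atf6 (-0.43 and -0.40) and Selenos (-0.31 and -0.35) were also lower in both comparisons, Hyou1 (-0.35) against dnChd4, and Syvn1 (0.33) and Edem1 (0.40) were higher against dnChd4. The Xbp1 call against dnSnf2h ended without either dnBrg1 repressed array (adjusted p up to 0.0797), and the Edem1 call against dnChd4 without either dnChd4 repressed array (up to 0.0597). The Atf6 calls ended without dnBrg1 repressed replicate 2 and 2 or 1 other repressed arrays of the lines compared (adjusted p up to 0.193). Against dnChd4 the count of 9 became 5 without dnBrg1 repressed replicate 2, 5 without dnChd4 repressed replicate 1 and 4 without dnChd4 repressed replicate 2, and against dnSnf2h the count of 6 became 3 without either dnBrg1 repressed array. These comparisons use the repressed arrays that the inductions also use. Ero1a, which rose in dnBrg1, thus rose in the line where its repressed level was lowest, and its induced values of 9.61 and 9.56 were below every array of the other lines.

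The control line was to show what drug removal and the transactivator do alone, and its arrays disagree with their labels at these genes. Herpud1 read 9.89, 8.43 and 8.42 in arrays labelled induced, against 8.32 and 9.93 in those labelled repressed. Xbp1 read 9.38, 8.46 and 8.35 in arrays labelled induced, against 8.27 and 9.41, and Sel1l read 8.99, 9.63 and 9.69, against 9.77 and 8.87. In each, the library labelled control induced replicate 1 lay with control repressed replicate 2, and control repressed replicate 1 lay with the other induced arrays. With 17 arrays 0 of the 32 and 0 of 19938 genes were called for control induction, and 0 of the 32 had an unadjusted limma p under 0.05. The Herpud1 change was -0.21 (SE 0.431). With 15 arrays 7 of the 32 rose and 12 fell, against 26.6% of all genes called, and the direction of this contrast follows from which arrays were left out. That fit leaves control repressed replicate 2 alone in its group, so the spread of that group was not measured and was taken from the other groups. Herpud1 then changed by -1.51, Xbp1 by -1.01, Edem2 by 0.91, Ern1 by 0.87, Ppp1r15a by 0.81 and Sel1l by 0.79. Those 6 had calls in these directions in at least 2 dominant-negative lines. The 2 control arrays were left out because they correlated with those inductions against their labels, so this overlap is not independent of that choice. Among other genes that fell in that fit were Manf (-0.78), Edem1 (-0.71), Derl3 (-0.60), P4hb (-0.48), Creld2 (-0.55), Hsp90b1 (-0.52) and Hspa5 (-0.31).

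The test of the dominant-negative induction minus the control induction gave 0 calls of the 32 in each line with 17 arrays, with 4, 2 and 0 of them at an unadjusted limma p under 0.05, against 0.0903%, 0.0401% and 0% of all genes called. With 15 arrays 8 were higher and 1 lower in dnBrg1, 2 were higher in dnChd4 and 0 were called in dnSnf2h (10 at an unadjusted limma p under 0.05). All genes were called at 6.95%, 0.818% and 2.08%. In that fit the repressed control is replicate 2 alone. Sdf2l1 changed by 0.89 more in dnBrg1 and by 0.75 more in dnChd4 than in the control. It read 9.30 in that replicate, against 8.72 in the omitted control repressed replicate 1. Herpud1 and Xbp1 turned with the arrays used. With 15 arrays Herpud1 was 1.00 higher in dnBrg1 and 0.70 higher in dnChd4 than in the control, and Xbp1 was 0.65 higher in dnBrg1, where the control's falls were larger. None of the 32 was therefore shown with all 17 arrays to respond to a dominant-negative remodeler beyond what induction of the control line gave.

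Further genes of the pathway were read from lists set beside the 32. Beside their counts stand shares of all genes. Above the dim bound more genes were called: 21.6%, 27.7% and 25.9% in dnBrg1, dnChd4 and dnSnf2h, in either direction. Genes of the PERK arm and ATF4 targets mostly fell in dnChd4 and dnSnf2h. Of 20, 1 rose and 7 fell in dnBrg1, 0 rose and 15 fell in dnChd4, and 0 rose and 15 fell in dnSnf2h, against 6.22%, 6.82% and 8.34% of all genes lower. Their medians were -0.21, -0.71 and -0.82. Aldh1l2, a mitochondrial folate enzyme, fell, with changes of -2.29, -1.91 and -2.33 in dnBrg1, dnChd4 and dnSnf2h (SE 0.131). The cystine transporter Slc7a11 fell, with -1.85, -2.58 and -2.75 (SE 0.157), and Psat1, of serine synthesis, fell by 1.02 in dnBrg1 and 1.46 in dnSnf2h. The pseudokinase Trib3 fell by 1.73 in dnChd4. Atf4 itself fell by 0.79 in dnChd4 (SE 0.105; adjusted p = 0.000112) and by 0.83 in dnSnf2h (adjusted p = 9.13e-05). Ppp1r15a, an ATF4 target of the 32, thus moved opposite to most of that list in dnChd4 and dnSnf2h, and opposite to 7 of its 20 genes in dnBrg1. Of 13 further signalling genes, 4 rose in each line (30.8%) and 2, 3 and 4 fell (15.4%, 23.1% and 30.8%), against 8.01%, 11.2% and 9.20% of all genes higher and 6.22%, 6.82% and 8.34% lower. Creb3, a transcription factor released from the ER and Golgi membrane, rose by 0.68, 1.04 and 0.81 (SE 0.102), Wfs1 by 0.49 in dnBrg1 and 0.64 in dnSnf2h, Creb3l1 by 0.71 in dnBrg1, and Ppp1r15b, the constitutive partner of Ppp1r15a, fell by 0.53 in dnChd4.

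Of 19 further ERAD genes 7 rose and 0 fell in each line, against 8.01%, 11.2% and 9.20% of all genes higher. Edem3 rose by 0.62, 0.74 and 0.67 in dnBrg1, dnChd4 and dnSnf2h (SE 0.127), and Os9, a lectin that passes glycoproteins to Hrd1, by 0.53, 0.52 and 0.57 (SE 0.105). The peptide N-glycanase Ngly1 rose by 0.57 in dnChd4 and in dnSnf2h, and the ubiquitin-conjugating enzyme Ube2j1 by 0.41 in dnBrg1. Of 23 further folding genes, 5 rose and 3 fell in dnBrg1, 4 and 4 in dnChd4, and 2 and 6 in dnSnf2h, or 34.8% called in each, against 14.2%, 18.0% and 17.5% of all genes (8.01%, 11.2% and 9.20% higher, and 6.22%, 6.82% and 8.34% lower). Among genes above the dim bound 21.6%, 27.7% and 25.9% were called. The sulfhydryl oxidase Qsox1 rose by 1.37, 0.86 and 0.60 (SE 0.0886), 0.77 more in dnBrg1 than in dnSnf2h (adjusted p = 0.00898), and Ero1b, the paralog of Ero1a, rose by 1.31, 0.82 and 1.02 (SE 0.121). Fkbp14 rose by 1.20 in dnChd4, Pdia5 fell by 0.80 in dnBrg1 and Fkbp11 fell by 0.64 in dnSnf2h. Beside these, the summed linear signal of 15 mesenchymal and fibroblast markers was 12888 to 13421 in induced dnBrg1 arrays against 18827 to 19457 in repressed ones, 17862 to 17863 against 19750 to 21238 in dnChd4, and 14194 to 17016 against 19155 to 20050 in dnSnf2h. Of the 15, 8 fell in dnBrg1, 1 in dnChd4 and 5 in dnSnf2h, against 6.22%, 6.82% and 8.34% of all genes lower. In dnChd4 the count is near that share. In these lines 0, 1 and 0 of the 15 rose, against 8.01%, 11.2% and 9.20% of all genes higher. Dcn and Lum averaged under the dim bound. A linear sum follows its brightest genes. The summed linear signal of 14 epithelial markers was also lower in induced arrays of each line. It was 569 to 570 against 679 to 700 in dnBrg1 and 710 to 723 against 961 to 983 in dnChd4. In dnSnf2h it was 710 to 719 against 977 to 983. Krt14 alone of the 14 was called lower, in each line, against 6.22%, 6.82% and 8.34% of all genes. Krt7 alone was called higher, in dnSnf2h. Krt14 was the brightest of the 14 on average, so the sums need not describe the other markers. The part of these shifts in the ER gene changes was not tested.

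**Figure D4:**
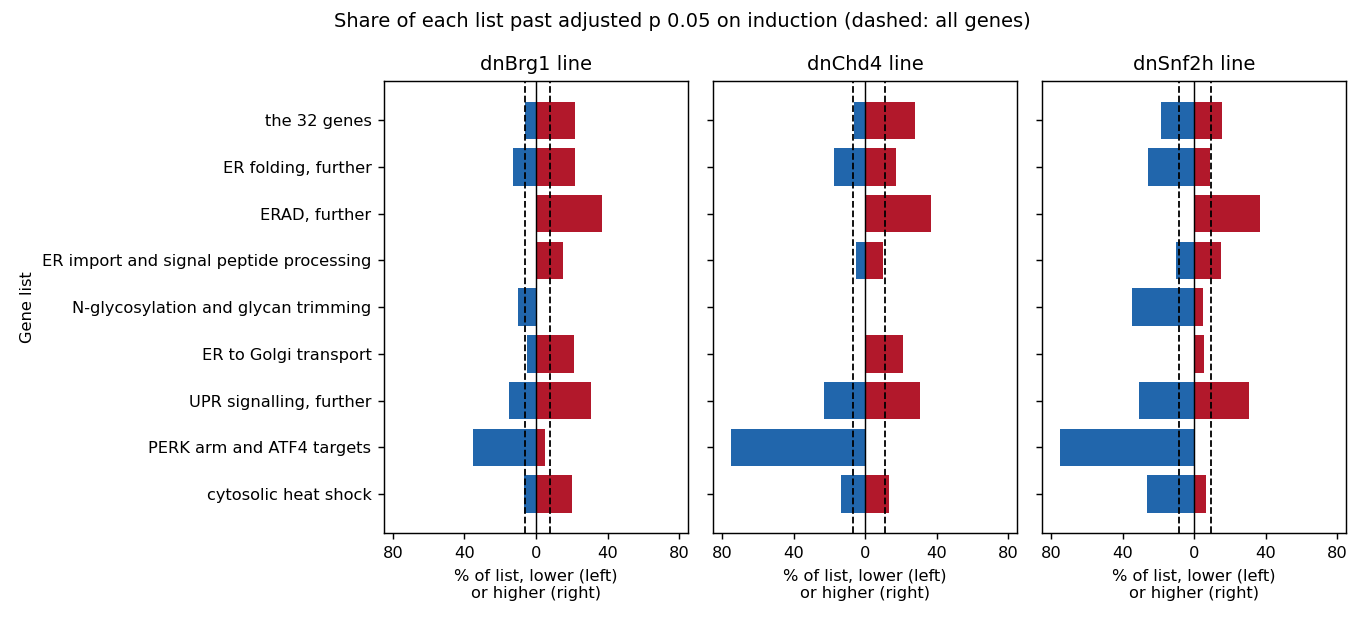
Percent of each gene list with a limma adjusted p under 0.05 on induction, lower to the left (blue) and higher to the right (red) of 0, in the dnBrg1, dnChd4 and dnSnf2h lines; dashed lines give the same shares over all 19938 genes. PERK arm and ATF4 targets lie almost wholly on the lower side, further ERAD genes wholly on the higher side, and the 32 genes on both.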

How the data were processed

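RNA levels were read from 17 Affymetrix Mouse Gene 1.0 ST arrays (about 100 ng of total RNA each). The deposited table holds log2 signal per probe set, judged log2 from its values (2.02 to 14.86), which the authors made with Affymetrix Expression Console, per the submitters' processing notes. Version, normalization and genome build: not given in the sources used here. An array gives no read depth, and the number of arrays limits precision.

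Of 35557 probe sets, 21789 had 1 gene symbol, 1621 several and 12147 none. The probe set of highest mean was kept for the 999 genes with several, which left 19938 genes. Groups came from sample titles. limma 3.58.1 (R 4.3.3; lmFit, contrasts.fit, eBayes, 1 mean per group) was fitted on 12 arrays (6 residual degrees of freedom) for the dominant-negative lines and on 17 (9) for control contrasts, tested on simulated data, with Benjamini-Hochberg adjustment over all genes and 0.05 as threshold. The 15-array fit left out 2 control libraries because they correlated against their labels.

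Alternatives were other sets of arrays, a replicate block, trended and robust eBayes, quantile normalization, median centring, no dim genes, the mean of probe sets and each array left out. Hspa5, Xbp1, Atf6, Ern1 and Eif2ak3 and every gene called in an induction are given in full, with up to 3 genes of smallest adjusted p per further list and line. The members, the lists and the choice of the 12-array fit were made with earlier results of these data known. No set test was run. Promoter sequences are from RefSeq (GRCm38.p6).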

Additional observations from a re-analysis of the deposited data

Results flagged for a closer look

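Ero1a stood out by a difference between lines under the same contrast. Its induction was 0.66 higher in dnBrg1 than in dnChd4 (log2, SE 0.151; limma adjusted p = 0.0488), with changes of 0.49 in dnBrg1 and -0.17 in dnChd4. Both induced dnBrg1 arrays were above both repressed ones, and both induced dnChd4 arrays were below both repressed ones. Such separation also held for genes that barely changed, such as Edem1 in dnBrg1 (0.02). The repressed dnBrg1 arrays started 1.17 below the repressed dnChd4 arrays (difference -1.17). The call was lost with the replicate block, with median centring and with all 17 arrays (adjusted p = 0.384), and without any of 10 of the 12 arrays. No group held 4 or more arrays, so no array was tested as an outlier.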

How the results depend on the processing

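Calls rested on the arrays that set the spread. With all 17 arrays the 32 genes gave 0 calls for induction of dnBrg1, dnChd4 or dnSnf2h, 0 for dnBrg1 minus dnChd4, and 1 in each repressed comparison of dnBrg1 (Ero1a). With the dnSnf2h arrays alone 6 genes were called in that line. The dnBrg1 minus dnChd4 count of 1 became 0 with the replicate block, 0 with median centring and 2 with quantile normalization. The dnBrg1 minus dnSnf2h count of 0 became 1 with trended and robust eBayes and 1 with quantile normalization. With 15 arrays the control induction gave 19 calls, dnBrg1 minus control 9 and dnChd4 minus control 2. Signs turned with 15 arrays for Hspa5 in the control (-0.31), Xbp1 (0.65) and Herpud1 (1.00) in dnBrg1 minus control, and Herpud1 in dnChd4 minus control (0.70). The wider spread of the 17-array fit comes from control arrays that disagree within their labels; for the other settings the cause was not tested. Leaving out 1 array in turn gave 6 to 11 calls in dnBrg1, 5 to 12 in dnChd4, 7 to 11 in dnSnf2h, 0 to 1 for dnBrg1 minus dnChd4, 4 to 9 and 3 to 7 for repressed dnBrg1 minus repressed dnChd4 and minus repressed dnSnf2h, and 0 in every other comparison. The labels name nothing that same-numbered arrays share. Deviations of same-numbered arrays correlated at 0.0160 in dnBrg1, 0.135 in dnChd4 and 0.313 in dnSnf2h, over 0.1 in 2 of the 3 lines, so whether the numbers pair arrays is unsettled. As a replicate block the array numbers left 10 calls in dnBrg1 and 11 in dnChd4, and they ended the dnSnf2h calls of Sel1l and Manf. The mean of probe sets ended the Sec61b call. Leaving an arm with 1 array assumes that it varies like the other groups.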

Other observations

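Other gene lists of the secretory pathway were counted in the same way, against 14.2%, 18.0% and 17.5% of all genes called in dnBrg1, dnChd4 and dnSnf2h (8.01%, 11.2% and 9.20% higher, and 6.22%, 6.82% and 8.34% lower). Among genes above the dim bound 21.6%, 27.7% and 25.9% were called. Of 20 N-glycosylation and glycan trimming genes, 0 rose and 2 fell in dnBrg1, 0 changed in dnChd4 (5 at an unadjusted limma p under 0.05), and 1 rose and 7 fell in dnSnf2h, against 8.34% of all genes lower in that line. Dpagt1, which starts the lipid-linked glycan, fell, with -0.44 in dnBrg1 and -0.50 in dnSnf2h (SE 0.0918), and the oligosaccharyltransferase subunits Rpn1 and Ddost fell, with -0.40 and -0.39 in dnSnf2h. Magt1 fell by 0.54 in dnBrg1. Of 20 ER import and signal peptide processing genes, 3 rose and 0 fell in dnBrg1, 2 rose and 1 fell in dnChd4, and 3 rose and 2 fell in dnSnf2h, or 15%, 15% and 25% called. Srp14, of the signal recognition particle, rose by 0.54, 0.66 and 0.70 in dnBrg1, dnChd4 and dnSnf2h (SE 0.101).

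Of 19 ER to Golgi transport genes, 4 rose and 1 fell in dnBrg1, 4 rose and 0 fell in dnChd4, and 1 rose and 0 fell in dnSnf2h, or 26.3%, 21.1% and 5.26% called, the last below the share of all genes. The SNARE Sec22b rose by 0.33, 0.40 and 0.36 (SE 0.0887), and Kdelr3, a receptor that returns chaperones to the ER, rose by 0.65 in dnChd4. The list of 15 cytosolic heat shock genes also holds the mitochondrial Hspd1 and Hspe1. Of the 15, 3 rose and 1 fell in dnBrg1, 2 and 2 in dnChd4, and 1 and 4 in dnSnf2h, or 26.7%, 26.7% and 33.3% called. Hspd1, the mitochondrial chaperonin, fell, with -0.55, -0.52 and -0.54 (SE 0.100), and Hspb1 rose by 1.55 in dnChd4 and 0.72 in dnSnf2h. Of 14 epithelial markers, Krt14 fell in each line, with -1.29, -1.15 and -1.29 (SE 0.155), and Krt7 rose by 0.43 in dnSnf2h. Of 10 macrophage markers, Lyz2 rose in each line by 1.34, 1.74 and 1.36 (SE 0.190). Cd68 rose by 1.03 in dnChd4 and fell by 0.48 in dnBrg1, and Cd14 fell by 0.70 in dnSnf2h, while 6 or 7 of the 10 read under the dim bound in every dominant-negative array. None of 8 endothelial markers was called by limma in the 3 lines, with 0 at an unadjusted p under 0.05. One of them, Cdh5 (VE-cadherin), averaged 4.17 in repressed dnBrg1 arrays, against 8.10 in repressed dnChd4 and 7.89 in repressed dnSnf2h arrays, differences of -3.93 and -3.73 (SE 0.159; limma adjusted p = 1.38e-09 and 2.95e-09). It was named after its values were seen.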
